A study of Homo sapiens with 6 samples.

Results

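The islands described here are the stretches of the nuclear genome where the input DNA itself was piled up. An island is a run of 200 bp windows that SICER joined, and an input is sheared chromatin sequenced without the antibody. An island was taken when its input reads per base reached at least 3 times the median of its table, with the mitochondrial genome left out. This gave 170 of 38695 islands in the untreated table (0.439%) and 1356 of 67801 in the DRB table (2.00%), 1526 of 106496 in all. The input counts chose the islands, so their own input density, and the ratio of IP to input within the same table, are given as description with no test. Readings in the other table are independent of the choice.

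The data are chromatin immunoprecipitation (ChIP-seq) libraries of HepG2, a human hepatocellular carcinoma line. Every group, inputs and DRB cells included, was made from cells infected with a lentivirus carrying METTL14 with an HA tag at its start and EGFP at its end. Infected cells were kept by puromycin and sorted for high GFP, so METTL14 is an overexpressed fusion protein. METTL14 is the partner of METTL3 in the complex that methylates adenosines in RNA. Untreated cells gave 2 IP libraries with an HA antibody and 2 input libraries. Cells given 100 µM DRB for 3 h, an inhibitor of transcription elongation, gave 1 IP and 1 input library.

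Human centromeres consist of long tandem arrays of alpha satellite, flanked by other satellite families. The short arms of the acrocentric chromosomes 13, 14, 15, 21 and 22 carry satellites and the ribosomal DNA (rDNA) arrays. A reference assembly holds few copies of such repeats, so reads from many copies in the cell are placed on the few that are present, in the IP and the input alike. Nuclear copies of mitochondrial DNA collect reads from the mitochondrial genome in the same way. Read density over such repeats depends on how many copies the cells hold, and the ratio of IP to input is the value that can be set against other islands. No hg19 genome or annotation was used here, so repeat families were not read from sequence, and a position is given without its gene.

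The nuclear islands held 14495388 IP and 14661480 input reads in the untreated table, and 1977419 and 1330018 in the DRB table. The median input density was 52.3 reads per kb untreated and 7.01 reads per kb with DRB. The mitochondrial genome, also called as 1 island, took 8.56% of the island input reads and 5.51% of the IP reads in the untreated table, against 51.2% and 18.0% in the DRB table. Each table pools or holds a single IP and a single input, so no value has a replicate error. Values are followed by 95% intervals, taken from the IP share by the exact Clopper-Pearson method; they cover counting error only, and PCR copies are not independent molecules.

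Most of the 170 untreated islands lay at the edges of the largest parts of chromosomes without any island. On each chromosome the longest stretch with no island in either table was used in place of an annotated centromere gap, and on acrocentric chromosomes the stretch at the start of the chromosome. On the 17 other autosomes these stretches measured 3.00 to 21.5 Mb, with a median of 3.14 Mb. Of the untreated islands, 120 (70.6%) lay within 5 Mb of such a stretch and 105 (61.8%) within 1 Mb. Over all untreated islands the shares were 6.56% and 1.16%. With stretches taken from the untreated table alone the first share was 36.5%. On X and Y the longest stretches were not those at the centromere, and 3 of the 120 lay beside the one on Y. A further 11 untreated islands on X lay between chrX:58560601 and chrX:61910800, around an island-free stretch of 3.12 Mb. A set of 9 on Y lay between chrY:13463601 and chrY:13860200. The remaining islands were 28 on autosomes away from a stretch and 2 elsewhere on X.

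The 1356 DRB islands were less concentrated there. Within 5 Mb lay 273 of them (20.1%, against 6.40% of all DRB islands), and within 1 Mb lay 163 (12.0%, against 1.06%).

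**Figure D1:**
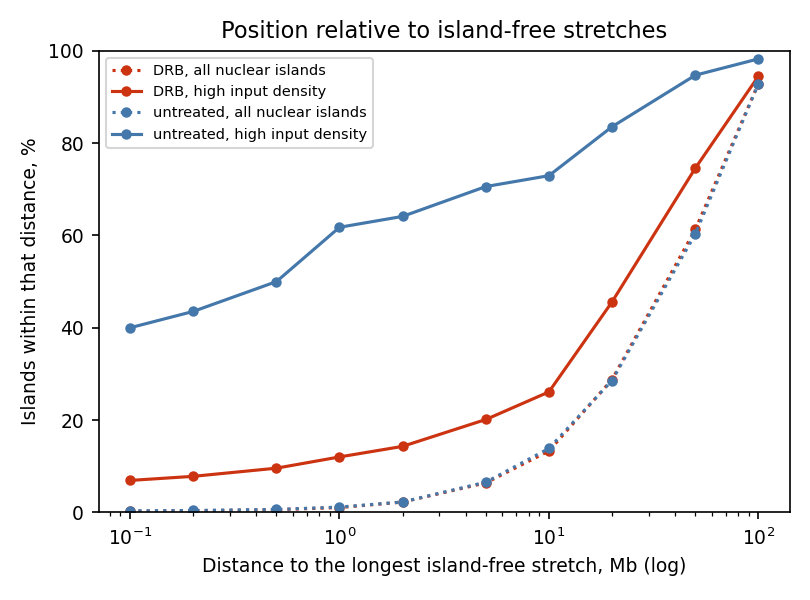
Cumulative percentage of islands (vertical axis) within a given distance in Mb (horizontal axis, logarithmic) of the longest island-free stretch of their chromosome. Solid lines are the high input density islands and dotted lines all nuclear islands; at 1 Mb the untreated line stands at 61.8% and the DRB line at 12.0%, while both dotted lines stay near 1%.

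Neighbouring islands joined within 10 kb formed 1199 loci, of which 102 held islands of both tables, 6 of the untreated table alone and 1091 of the DRB table alone. Of the 102 shared loci, 66 (64.7%) lay within 5 Mb of a stretch. The 8 loci with the most input reads held 73.4% of the input reads of the untreated high-density islands and 43.0% of those of the DRB ones. A few blocks near the stretches thus carried most of the input reads of the untreated high-density islands.

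The block with the most reads was chr1:121475001-121485600, at the edge of the chromosome 1 stretch. It held 71875 IP and 75136 input reads untreated, a scaled ratio of 1.03 (1.02 to 1.04), and 17147 IP and 18166 input reads with DRB, a ratio of 0.812 (0.796 to 0.830). The ratio, or fold, is the authors' deposited one, in which IP divided by input is scaled by 1 constant per table. The DRB constant (0.861) is 0.802 times the untreated one (1.07), so equal unscaled ratios would differ by that factor once scaled. Unscaled values are given beside the comparisons they change. Whether the scaled or the unscaled ratio is the better measure between the tables was not tested. Within the chromosome 1 block, chr1:121482001-121485600 had the highest untreated input density of all, 388 times the median, from 69838 IP and 72981 input reads. Its DRB counterpart stood at 743 times the median, from 16750 IP and 17695 input reads. IP density stood at 371 times its own median untreated and 403 times with DRB.

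The blocks on chromosomes 6, 18 and 19 looked alike, each a single island 7.2 to 9.6 kb long beside the stretch. At chr6:58772801-58780000 the ratio was 1.06 untreated (36409 IP and 36806 input reads) and 0.805 with DRB (9774 and 10446). At chr18:18510801-18520400 it was 1.02 (18109 and 19011 reads) and 0.749 (4432 and 5091). At chr19:27731801-27740600 it was 0.999 (17446 and 18742) and 0.760 (3950 and 4475). All 3 were close to 1 untreated and below 1 with DRB, with DRB intervals whose upper ends lay at 0.828 or lower. Unscaled, the step was smaller, from 0.989 to 0.936 on chromosome 6, 0.953 to 0.871 on 18 and 0.931 to 0.883 on 19, and on chromosome 1 from 0.957 to 0.944.

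The blocks on chromosomes 2, 7, 10 and 16 were clusters of islands. At chr2:92266401-92325000, 7 untreated and 8 DRB islands gave summed ratios of 1.01 and 0.724. The clusters chr16:46385601-46440600 and chr7:61967201-62001000 gave 1.03 and 1.06 untreated, against 0.926 and 0.967 with DRB. The cluster chr10:42355001-42418400 differed least between the tables, 1.04 (1.02 to 1.05) and 1.01 (0.987 to 1.04). Unscaled, the chromosome 2 cluster was still the lower with DRB (0.939 and 0.841), but the others were the higher, at 0.957 and 1.08 on chromosome 16, 0.992 and 1.12 on 7, and 0.968 and 1.18 on 10. Their direction between the tables therefore depends on the scaling.

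One island of that chromosome 10 cluster was higher with DRB on the scaled ratio too. At chr10:42355001-42367000 the ratio was 1.13 untreated (1.06 to 1.20; 2098 IP and 1993 input reads) and 1.41 with DRB (1.28 to 1.55; 1194 and 729). It was 1 of 2 islands whose DRB interval lay wholly above the untreated one (13 with no scaling). The other was chr3:196625601-196626800, away from any stretch, at 0.906 (315 and 373 reads) and 1.56 (154 and 85).

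Over all 170 untreated islands the median ratio was 1.02, with quartiles of 0.964 and 1.13. The median was 1.08 over all untreated islands and 1.07 over the other islands with at least 100 input reads. Together the 170 held 2.49% of the island input reads and 2.47% of the IP reads on 0.154% of the covered length. The authors' list of significant islands held 25 of them (14.7%), where the background is 5.1% of all untreated islands, and nothing is read from this because the rule used the input. The islands were short, with a median width of 600 bp and a range of 200 to 27400 bp.

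The untreated ratios fell into 3 ranges, split after the values were seen. Between 0.810 and 1.48 lay 149 islands with a median of 1.02, among them 118 of the 120 near a stretch. Above them 15 islands had ratios of 2.01 or more, and below them 6 had ratios of 0.735 or less, the lowest 0.627. The 28 autosomal islands away from a stretch held 13 of the 15 and 5 of the 6.

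**Figure D2:**
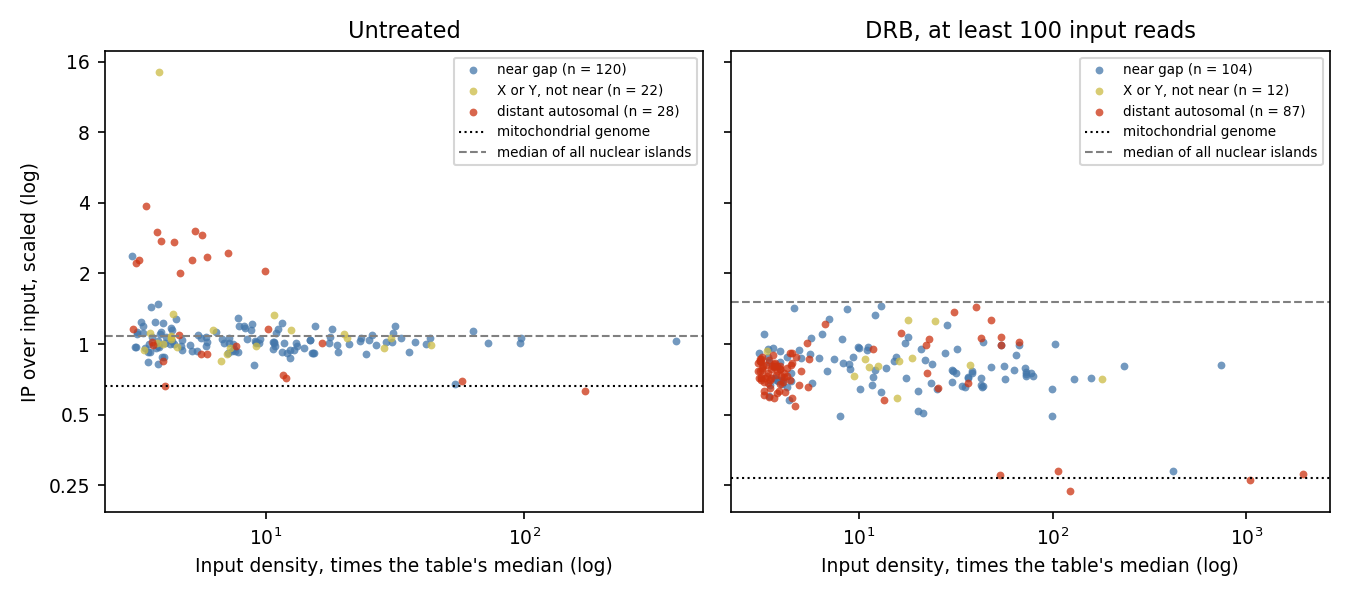
Scaled IP over input (vertical axis, logarithmic) against input density in multiples of the table's median (horizontal axis, logarithmic) for the 170 untreated islands (left) and the 203 DRB islands with at least 100 input reads (right). Colours give the position relative to the island-free stretches; the dotted line is the mitochondrial genome and the dashed line the median of all nuclear islands, which is 1.08 untreated and 1.51 with DRB.

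Of the 15 islands of high ratio, 13 kept at least 0.5 of their untreated input reads in the DRB table, and these are described as a group here. From general knowledge, their positions match hg19 sites that published exclusion lists attribute to ribosomal RNA sequence, and this was not checked by sequence here. Ribosomal RNA genes are transcribed by RNA polymerase I from many tandem copies. The largest island, chr21:9825401-9839800 on the short arm of chromosome 21, held 5059 IP and 2292 input reads untreated, a ratio of 2.37 (2.25 to 2.49). With DRB it held 3075 IP and 2196 input reads, a ratio of 1.21 (1.14 to 1.27). Its input reads were thus nearly the same in number in both tables, while its IP reads were fewer with DRB.

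The shorter ones followed. At chr1:91851801-91853200 there were 809 IP and 379 input reads untreated (ratio 2.29) and 562 and 452 with DRB (1.07). At chr1:156186201-156186800 there were 598 and 312 untreated (2.06) and 444 and 376 with DRB (1.02). At chr2:133011801-133013200 there were 508 and 238 untreated (2.29) and 275 and 225 with DRB (1.05). In each of these the DRB input count was close to the untreated one.

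The highest untreated ratios of the 13 were at chr11:85194801-85195400, 3.03 from 471 IP and 167 input reads, and at chr8:70602201-70602800, 3.01 from 334 and 119. With DRB these became 0.986 from 259 and 226 reads and 1.38 from 278 and 174. At chr5:71146601-71147000 the ratio was 2.45 (343 and 150 reads) untreated and 1.44 (281 and 168) with DRB. At chr17:33478001-33478400 it was 2.91 (323 and 119) and 1.27 (199 and 135). DRB values of these 4 ranged from just under 1 to 1.44.

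Over the 13, untreated ratios ran from 2.01 to 3.03 with a median of 2.37, and DRB ratios from 0.986 to 1.54 with a median of 1.21. The DRB ratio was the lower in 13 of 13, and in 11 the 2 intervals did not overlap (13 and 9 with no scaling). The 13 were picked for a high untreated ratio, which favours a lower value in the other table, so this tally is a description. With no scaling the medians were 2.21 untreated and 1.40 with DRB. In 6 of 13 the scaled DRB interval was still above 1, a count that depends on the constant and was not taken unscaled. Summed, the 13 held 9457 IP and 4241 input reads untreated (ratio 2.39), and 6093 and 4464 with DRB (1.17). The input count with DRB was 0.879 to 1.46 times that without (median 1.13), a measure that also set these 13 apart. Set against each table's own median density, the input at these islands was 7.06 times higher with DRB and the IP 2.35 times higher (medians).

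Both other islands of high ratio had fewer input reads with DRB, 0.332 and 0.319 times the untreated counts. At chrX:77359201-77361000 there were 4943 IP and 365 input reads untreated, a ratio of 14.5 (13.1 to 16.2), the highest of all untreated islands. The sequence of the lentiviral vector was not used here, so reads of a vector element that also matches the genome, at this island or another, cannot be told apart from chromatin reads. With DRB there were 121 IP and 121 input reads, a ratio of 0.861 (0.663 to 1.12). At chr10:103124001-103124800 the ratio was 3.87 (520 and 144 reads) untreated and 0.580 (0.356 to 0.935; 31 and 46 reads) with DRB.

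The 6 islands of low ratio followed the mitochondrial genome. From general knowledge they too are on published hg19 exclusion lists, as nuclear stretches resembling mitochondrial DNA, which was not checked by sequence here. The mitochondrial genome had a ratio of 0.660 (0.658 to 0.662) untreated, from 844484 IP and 1373176 input reads, and of 0.268 (0.267 to 0.268) with DRB, from 434017 and 1396131. At chr1:569601-570200 the ratio was 0.627 (0.600 to 0.656; 3155 and 5395 reads) and then 0.279 (0.264 to 0.294; 1764 and 5450 reads). At chr5:134259801-134261200 it was 0.694 (2734 and 4228 reads) and 0.262 (1331 and 4377). At each island the IP was depleted against input in both tables and more so with DRB, and in all 6 the DRB interval was wholly below the untreated one with and without scaling.

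At chr5:134262201-134264200 the ratio was 0.735 (836 IP and 1221 input reads) untreated and 0.276 (385 and 1202) with DRB. At chr17:22020601-22020800, the one of the 6 near a stretch, it was 0.674 (355 and 565) and 0.288 (194 and 580). At chr7:45291401-45291800 it was 0.718 (168 and 251) and 0.287 (99 and 297). The sixth, chr8:100506001-100509000, went from 0.662 (394 and 639) to 0.235 (141 and 517).

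The DRB input count at the 6 was 0.809 to 1.18 times that without DRB, and at the mitochondrial genome 1.02 times. In a shallower table, the input at chr1:569601-570200 thereby stood at 1949 times the median, against 172 untreated, and was the densest of the DRB table. The 6 DRB islands were the only ones among all 67801 with a ratio under 0.3. The next lowest high-density DRB island with at least 100 input reads had 0.491.

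**Figure D3:**
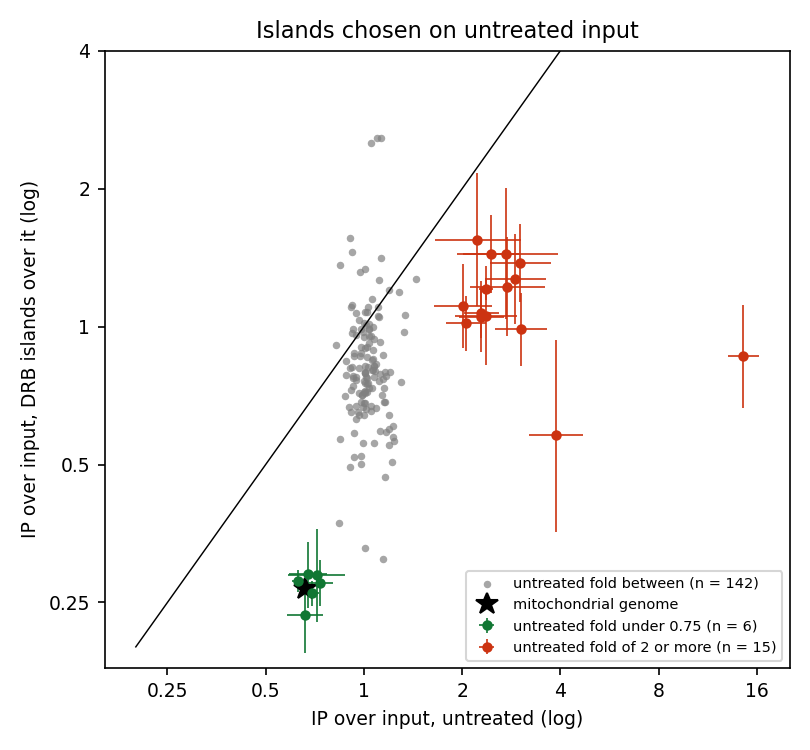
Scaled IP over input of the untreated-chosen islands in the untreated table (horizontal axis, logarithmic) and in the DRB islands over them (vertical axis, logarithmic), with the line of equality. Grey points are the 142 islands of intermediate untreated ratio, red the 15 of 2 or more and green the 6 under 0.75, the latter 2 with 95% counting intervals. The star is the mitochondrial genome, at 0.660 and 0.268, which lies among the green points, and 138 of 163 islands lie below the line (100 with no scaling).

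The islands chosen on untreated input could be read independently in the DRB table. Of the 170, 163 (95.9%) were overlapped by a DRB island, and 159 (93.5%) by a DRB island that also reached 3 times its median. Their median DRB input density was 17.9 times the DRB median, with quartiles of 9.41 and 37.4. Their median ratio was 1.02 untreated and 0.799 with DRB, lower with DRB in 138 of 163. In 70 of 163 the whole DRB interval was under the untreated interval. Most of this step was absent with no scaling. Unscaled, the medians were 0.953 and 0.928, the DRB ratio was lower in 100 of 163, and the DRB interval was wholly below in 27 and wholly above in 13.

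IP was tested against scaled input in every DRB island with a two-sided exact binomial test, with Benjamini-Hochberg adjustment over all 67801 islands. Of the 174 DRB islands over untreated-chosen ones, 33 (19.0%) had IP below input at an adjusted p under 0.05. The background is 0.0811% of all DRB islands. Neighbouring islands of 1 block are not independent, so no interval is given for the share. IP was above input in 2 (1.15%), where the background is 0.00885%. These 2 were chr10:42355001-42367000 and chr21:9825401-9836200. The 33 came to 27 without the 6 mitochondrial-like ones and to 21 at an adjusted p under 0.0001. The split depends on the authors' constant of 0.861, since with no scaling 16 were below and 10 above input. The few reads of most DRB islands limit the background, and among all DRB islands the 55 that passed below input were all of high input density.

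The 3 ranges differed in this test. All 6 islands of low untreated ratio passed with IP below input, as did 28 of 142 intermediate ones and none of the 15 of high ratio. Of the high ones, 1 passed above input, and of the intermediate ones, 1. The difference between these shares was not tested.

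Near the stretches, 112 islands of intermediate ratio had a DRB island, and their median ratio was 1.02 untreated and 0.779 with DRB, lower in 97 of 112. In the 69 with at least 100 DRB input reads the medians were 1.02 and 0.771, and 64 were lower. The other DRB islands with at least 100 input reads, 523 in number, had a median of 0.958. With no scaling the 112 gave 0.950 and 0.906, lower in 63, with 7 intervals wholly below and 11 wholly above, and the 69 gave 0.950 and 0.895, lower in 43, with 7 below and 10 above. A difference between the tables at these islands was thus not separable from the scaling. The comparison with the 523 other islands lies within 1 table and does not depend on the constant. It is not independent of the rule, since DRB input density, the denominator of the ratio, differs by definition. The 523 lay under 3 times the DRB median, while all 69 were overlapped by a DRB island that reached it. Nothing is therefore read from this comparison. The share of mitochondrial reads and the depth also differ between the tables, and their part was not tested.

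Relative to the median of each table's islands, input density at the untreated-chosen islands was higher with DRB. In 7547 pairs of islands with a reciprocal overlap of 50% or more, the DRB input density relative to its median was a median 1.00 times the untreated one (quartiles 0.808 and 1.27). In the 127 pairs with an untreated-chosen island it was 2.22 times (1.83 and 2.88), above 1 in 125. The relative IP density was 1.21 times the untreated one in these and 0.809 times in all pairs. By range, the relative input was 2.14 times as high in 90 intermediate pairs near a stretch, 7.17 times in 11 of high ratio and 8.25 times in 4 of low ratio. In raw reads per kb, the untreated input was 7.43 times as dense as the DRB input over all pairs, 3.36 times over the 127, and 1.04 times over the 11.

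**Figure D4:**
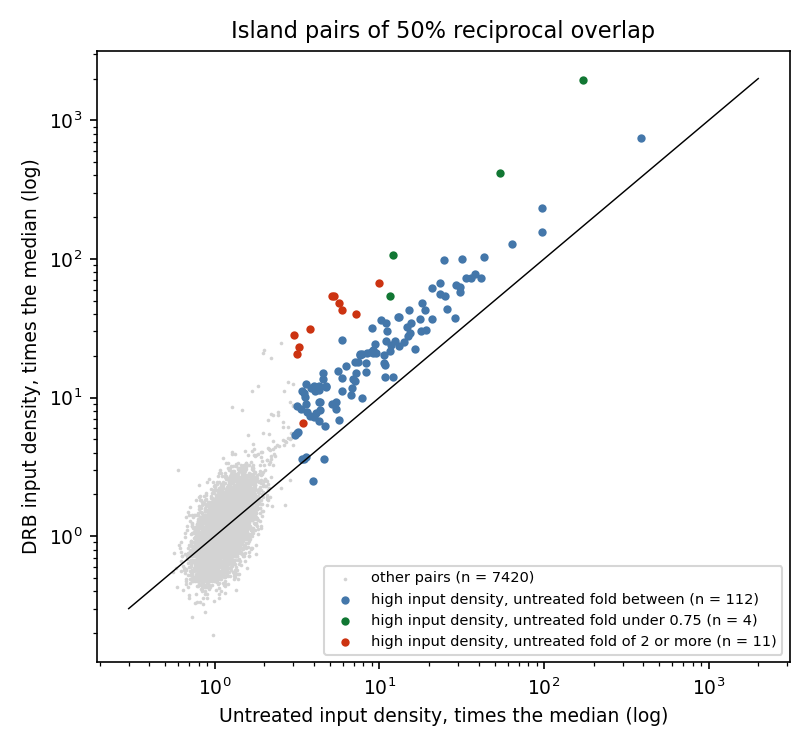
Input density in multiples of the table's median, untreated (horizontal axis) and DRB (vertical axis), both logarithmic, for 7547 pairs of islands with 50% reciprocal overlap. Grey points are pairs without an untreated-chosen island; of the 127 coloured pairs 125 lie above the line of equality, the red (ratio of 2 or more) and green (under 0.75) ones farthest.

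The acrocentric chromosomes held 10 untreated islands, 1 on chromosome 14, 5 on 21, 4 on 22 and none on 13 or 15, all within 5 Mb of the leading stretch. Their median ratio was 1.03, and apart from the rDNA-like island of chromosome 21 they ran from 0.810 to 1.24. At chr14:19003401-19005400 the ratio was 0.922 (704 IP and 819 input reads) untreated and 0.967 (218 and 194) with DRB. At chr22:18879801-18882200 it was 1.15 (1186 and 1104) and 0.734 (267 and 313). At chr21:11176601-11187000 it was 1.04 (2508 and 2590) and 0.734 (503 and 590). With DRB, 35 islands lay near these stretches, 16 on chromosome 14, 1 on 15, 12 on 21 and 6 on 22, with a median ratio of 0.725. The 16 on chromosome 14 had a median of 0.702. Several of them belong to the set of 29 islands of chromosome 14 described below and are counted in both places. One is chr14:23502201-23505000, 4.50 Mb from the stretch, with a ratio of 0.491.

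The X and Y clusters stood close to the near-stretch islands. The 11 islands of the X cluster had a median ratio of 0.985, and the 9 of the Y cluster 1.06. The densest, chrX:58560601-58561600, had 2095 IP and 2281 input reads untreated (ratio 0.985) and 413 and 501 with DRB (0.710). The largest on Y, chrY:13478201-13488000, had 1915 and 1837 untreated (1.12) and 644 and 702 with DRB (0.790). Most of the other islands of both clusters held under 150 DRB input reads, and their DRB ratios scattered on both sides of 1.

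The high-density islands of the DRB table were mostly thin. Of the 1356 DRB islands, 987 held under 50 input reads and 203 at least 100, with a median of 23. Their median ratio was 0.952, against 1.51 over all DRB islands, and 14 (1.03%) were in the authors' list, where the background is 4.76%. The rule used the same input reads, so nothing is read from these. The 203 with at least 100 input reads had a median of 0.779. Read in the untreated table, 1050 of 1356 (77.4%) were overlapped by an untreated island, with a median input density of 1.38 times the untreated median, and 163 (12.0%) by one of high density. Of the 987 with under 50 reads, 39 lay over an untreated island of high density, and of the 203, 98.

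Chromosomes 2, 6, 14, 16, 17 and 20 held 777 of the 1356, a share near theirs of all islands (57.2% of all DRB islands lay on them). Of these 777, 657 lay away from a stretch, and 8 of the 564 covered in the untreated table lay over an untreated island of high density. The widest of all was chr14:37695801-37751400, 55.6 kb, with 1225 IP and 1293 input reads and a ratio of 0.815. On chromosome 14 a set of 29 DRB islands lay between chr14:23206601 and chr14:25471400 with a median ratio of 0.702, where the untreated table had none of high density. Wide untreated islands below the threshold did overlap this interval. They included chr14:23524601-23579800 at 1.89 times the untreated median (ratio 0.924) and chr14:24023201-24045200 at 1.77 times (0.901). Another was chr14:25250801-25513400 at 1.91 times (0.966). The input density of the 29 DRB islands was moderate, at most 7.95 times the median, and their median width was 4800 bp.

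In the reverse reading, 998 untreated islands lay over a high-density DRB island. The same test, adjusted over all 38695 untreated islands, found IP above input in 113 of them (11.3%, background 5.17%) and below in 11 (1.1%, background 0.0827%). The 11 included the 6 mitochondrial-like islands, which untreated input had chosen as well. The others were wide islands of chromosome 14, of 22000 to 262600 bp, with ratios of 0.901 to 0.966. These wide islands held 2043 to 26260 input reads, against a median of 240 over all untreated islands. Islands of many reads pass this test more easily, so the background is not matched in depth. Both counts also depend on the authors' constant of 1.07 and were not taken unscaled.

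The authors' lists held 4 of the untreated high-density islands in both conditions. They were the chromosome 10 island at 42355001, the rDNA-like island of chromosome 21, and the short islands chr5:71146601-71147000 and chr8:70602201-70602800. Of the DRB islands with at least 100 input reads, the highest ratio was 1.46 (1.26 to 1.69), at chr16:33962201-33965400, from 495 IP and 292 input reads.

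The threshold cut through few untreated and many DRB islands. Within 10% of it lay 26 untreated and 1109 DRB islands. Just inside in the untreated table were the rDNA-like island of chromosome 21 (3.04 times the median) and chr17:41465601-41467400 (3.08 times, ratio 1.16). Just outside was chr20:47130801-47133200 (2.995 times, ratio 0.859). In the DRB table an island such as chr12:56302601-56303600, with 20 IP and 21 input reads, was just inside at 3.00 times. The island chr14:38254601-38270400, with 302 and 332 reads and a ratio of 0.783, was just outside at 2.999 times.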

How the data were processed

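Anti-HA ChIP-seq and input libraries of HepG2 cells were single-end reads of 50 nt, per the labels' protocols. Per the submitters' processing notes, FastQC 0.11.5, Bowtie 1.1.2 and SICER were used with the build hg19; for SICER's settings, reads with several matches and the pooling of the 2 untreated replicates, the answer is not given in the sources used here. The deposited counts are whole IP and input reads per island, not normalized. The deposited ratio (fold) is IP over input times 1.07 (untreated) or 0.861 (DRB), tested on the values. The authors' p-value and false discovery rate were used only through their significant lists, which held exactly the islands with a rate under 0.0001.

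From these, input density, intervals, overlaps of at least 1 bp and exact binomial tests (doubled smaller tail) were computed in Python 3.11.15 (SciPy 1.17.1, pandas 2.3.3, numpy 2.4.6, plots in matplotlib 3.10.9). The test was run on simulated binomial counts, with changes placed only in islands of many reads. That run does not cover thin islands or PCR copies. Positions are 1-based. Reads of all DRB islands over an untreated island were summed. Named islands were the 8 densest, 5 widest, 3 highest and 3 lowest in ratio with at least 100 input reads per table, those in both lists, the 8 loci of most input reads and those nearest the threshold; others were named after their values were seen. The islands and lists were chosen with earlier results of these data known. Separate cultures for the 2 untreated libraries are not stated in the labels. Alternatives were other thresholds, scalings, distances, overlaps and minimum reads.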

Additional observations from a re-analysis of the deposited data

Results flagged for a closer look

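In 15 of the 163 untreated-chosen islands with a DRB counterpart, the counting intervals of the 2 tables lay on opposite sides of 1, above it untreated and below it with DRB. The difference between the tables was not tested, since neither has a replicate. The sides of 1 depend on the authors' constants: with no scaling, 3 of the 15 still lay on opposite sides, 14 were lower with DRB and 1 was higher.

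The DRB ratio was 0.793 times the untreated one at chr1:121482001-121485600 (1.03 and 0.815), 0.759 times at chr6:58772801-58780000 (1.06 and 0.805) and 0.733 times at chr18:18510801-18520400 (1.02 and 0.749). Unscaled, these 3 became 0.989, 0.946 and 0.914 times. At chr16:46398401-46414400 it was 0.923 times (1.04 and 0.956), and unscaled 1.15 times, the one island whose direction turned. At chr10:103124001-103124800 it was 0.15 times (3.87 and 0.580), and unscaled 0.187 times.

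On opposite sides with no scaling as well were chr8:43092601-43098200 at 0.415 times (unscaled 0.518), chr18:105201-112400 at 0.59 times (0.735) and chrY:58827201-58827600 at 0.536 times (0.668). The remaining ones were chr8:43772201-43772600 at 0.496 times, chrY:58855201-58856200 at 0.595, chr21:14353201-14353400 at 0.621, chr22:18879801-18882200 at 0.637 and chr7:61988401-61992800 at 0.684. The Y cluster gave 0.706 times at chrY:13478201-13488000 and 0.741 at chrY:13463601-13470600.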

How the results depend on the processing

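At 2, 5 and 10 times the median density there were 279, 109 and 63 untreated islands and 5971, 322 and 151 DRB islands, and 369 DRB islands held at least 50 input reads. The untreated median ratio was 0.952 with no scaling, 0.947 with a scaling centred on all islands and 1.05 from summed reads, so its side of 1 depends on the scaling. The DRB median was 1.11 with no scaling, 0.632 centred, 1.07, 0.861 and 0.798 at 2, 5 and 10 times the median, 0.817 from summed reads and 0.783 with at least 50 input reads (an alternative chosen after seeing the data). The share in the authors' list was 9.52% untreated at 10 times the median, and for DRB 3.42% and 4.64% at 5 and 10 times and 0.148% by the binomial test. The share near a stretch was 36.5% untreated and 15.0% DRB with stretches of the untreated table alone, 80.7% untreated without X and Y (chosen after seeing the data), and 14.3% and 26.1% DRB within 2 and 10 Mb. Without the island of most input reads, the input and IP shares were 1.99% and 1.99% (1.985) untreated and 11.2% and 7.13% DRB. By 50% reciprocal overlap, 74.1% of untreated islands lay over a high-density DRB island. At an adjusted p of 0.0001, 21 DRB islands passed below input, and in the reverse reading 11 became 5 below and 113 became 59 above; with no scaling 16 DRB islands were below and 10 above. With no scaling (for these counts chosen after seeing the data), DRB intervals wholly below the untreated ones numbered 27 in place of 70 and those wholly above 13 in place of 2. For the 112 intermediate islands near a stretch these were 7 and 11 in place of 43 and 1, with 63 in place of 97 lower, and for the 69 of at least 100 DRB input reads 7 and 10 in place of 39 and 1. Of 73 values under alternatives for 34 results, the other 30 kept counts within 1.5 times, and medians and shares within intervals taken over islands. Islands are not replicates, so these intervals served only to sort the alternatives. No paired analysis was possible because the untreated tables pool both replicates, and no replicate could be left out for the same reason. Depth limits the DRB table most, where the median high-density island had 23 input reads.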
